A study of Mus musculus with 6 samples.

Results

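The genes described here encode the lysosome's membrane proteins, its proton pump, its acid hydrolases and the transcription factors that act on such genes. They were chosen as 41 listed symbols, and 38 of them had a probe set carrying a single gene symbol, out of 12394 genes measured in this way. Tfe3, Cd63 and Atp6v0c had no such probe set in the annotation used and were not analysed here. The measured members were 2 transcription factors, 8 membrane proteins, 14 subunits of the proton pump, 11 hydrolases and 3 cofactor or sorting genes.

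The cells were CD11c-positive conventional dendritic cells, sorted by flow cytometry from BALB/c mice, with 3 arrays labelled lymph node and 3 labelled spleen. All groups share the strain, the sort and the amplification, and the labels name no treatment, genotype or age. The RNA was total RNA with carrier RNA added, amplified from a small input and hybridised to Affymetrix 3′ arrays, which read each transcript with probes near its 3′ end. Nothing in the labels ties an array to an animal, a pool or a separate sort, so each p-value is set against the variation among these 6 arrays, and that variation may be technical.

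A lysosome is the acid compartment in which a cell digests proteins, lipids, glycans and nucleic acids taken up from outside or delivered by autophagy. The proton pump, or V-ATPase, keeps it acid: the cytosolic V1 sector splits ATP and turns a rotor that drives protons through the membrane-embedded V0 sector. TFEB, TFE3 and MITF are related transcription factors that bind E-box motifs in the promoters of many lysosomal genes. Dendritic cells use this compartment to cut antigen into peptides for MHC class II molecules, and are known for holding its proteolysis below that of macrophages, so that peptides survive for presentation.

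The deposited values were linear intensities with medians of 39.4 to 41.3 per array, and every level below is their log2 value. Each difference is the mean of the arrays labelled spleen minus the mean of the arrays labelled lymph node. Each is given with its standard error and the adjusted p of limma, which was fitted on all 12394 genes with Benjamini-Hochberg adjustment. A gene passed when its adjusted p was below 0.05.

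The groups also differed in measures outside the lysosome. The summed intensity of 11 measured conventional dendritic cell markers was 23150 to 24625 in the arrays labelled lymph node and 12802 to 19077 in those labelled spleen, and Itgax (difference -0.97) and Sirpa (-1.19) passed as lower in the latter. Xcr1 (1.14, without overlap) and Itgae (1.18, with overlap) lay the other way and did not pass. The summed intensity of 10 plasmacytoid dendritic cell markers was 730.1 to 1344.1 and 1693.8 to 5736.7, in the same order. Ccr9, Klk1 and Blnk of these passed as higher in the arrays labelled spleen, while Bst2, Tcf4, Irf7 and Lair1 overlapped. The mean log2 level of these markers was 8.64 in spleen array 3, and 7.06 and 6.97 in spleen arrays 1 and 2. For 6 Langerhans and migratory dendritic cell markers the summed intensity was 1158.7 to 1601.3 and 3672.6 to 5353.5. Ccr7, Fscn1, Ccl22 and Cd200 of that list passed as higher in the arrays labelled spleen, while Cd207 (0.67) and Epcam (-0.41) overlapped. Migratory dendritic cells are known from lymph nodes, whereas those 4 genes had their lower levels in the group of that label. The reason for this was not tested. Whether the group labels were exchanged was not tested, and if they were, the direction of every difference given here would turn. For T cell markers the sums were 415.1 to 704.8 and 677.6 to 1304.7, and for B cell markers 217.4 to 266.3 and 164.2 to 218.6. For NK cell markers they were 375.9 to 864.8 and 414.6 to 1625.3, and for plasma cell markers 168.0 to 307.3 and 222.3 to 593.3. For neutrophil markers they were 162.2 to 697.6 and 55.2 to 116.4. Single markers in these lists passed, Cd28 (4.07) and Sdc1 (3.93) as higher and Cr2 (-1.60) and Camp (-1.37) as lower in the arrays labelled spleen. The other measured markers of these lists did not pass. The 11 macrophage markers summed to 1283.3 to 2097.1 and 739.8 to 1092.4, with Mertk and Fcgr1 below a log2 level of 4 on every array, close to the bottom of the scale. The bacterial poly-A control transcripts were higher in every array labelled spleen (mean log2 8.41 to 9.06 against 7.39 to 7.96). The 5′ signal of Gapdh relative to its 3′ signal was lower there (log2 ratio -3.44 to -3.14 against -2.79 to -2.60). The same ratio for b-actin overlapped between the groups (0.18 to 0.33 against 0.17 to 0.35). The share of these measures in the results on lysosomal genes was not tested beyond the fits with a covariate given with them. The poly-A level and the mean plasmacytoid marker level each separated the groups without overlap. A fit with either covariate therefore cannot tell it apart from the group label. In RNA from sorted populations, a smaller number of cells of a type and less RNA per cell cannot be told apart.

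Of the 38 measured members, 2 passed as higher in the arrays labelled spleen, Laptm4b and Atp6v1a, and 1 passed as lower, Tfeb. Over all genes, 421 of 12394 passed (3.40%), with 251 higher (2.03%) and 170 lower (1.37%), beside 3 of 38 members. The 3 arrays of one group lay entirely above or below those of the other for 18 members, 13 higher and 5 lower in the arrays labelled spleen. Without regard to direction this held for 24.5% of all genes, for 11.8% as higher and for 12.7% as lower. The members' median difference was 0.18 beside -0.0053 for all genes, with 24 members above 0 and 14 below. On the log2 scale 32 of the 38 differed by less than 1, beside 94.0% of all genes. An unadjusted p below 0.05 in limma was reached by 18 members, beside 2360 of all genes (19.0%). The members were mostly bright, with 36 of 38 above the median level of all genes. When only the 6197 genes above that median were fitted, 1672 of them (27.0%) reached it, beside 18 of 36 members. No member had a mean level under 4 in either group.

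**Figure D1:**
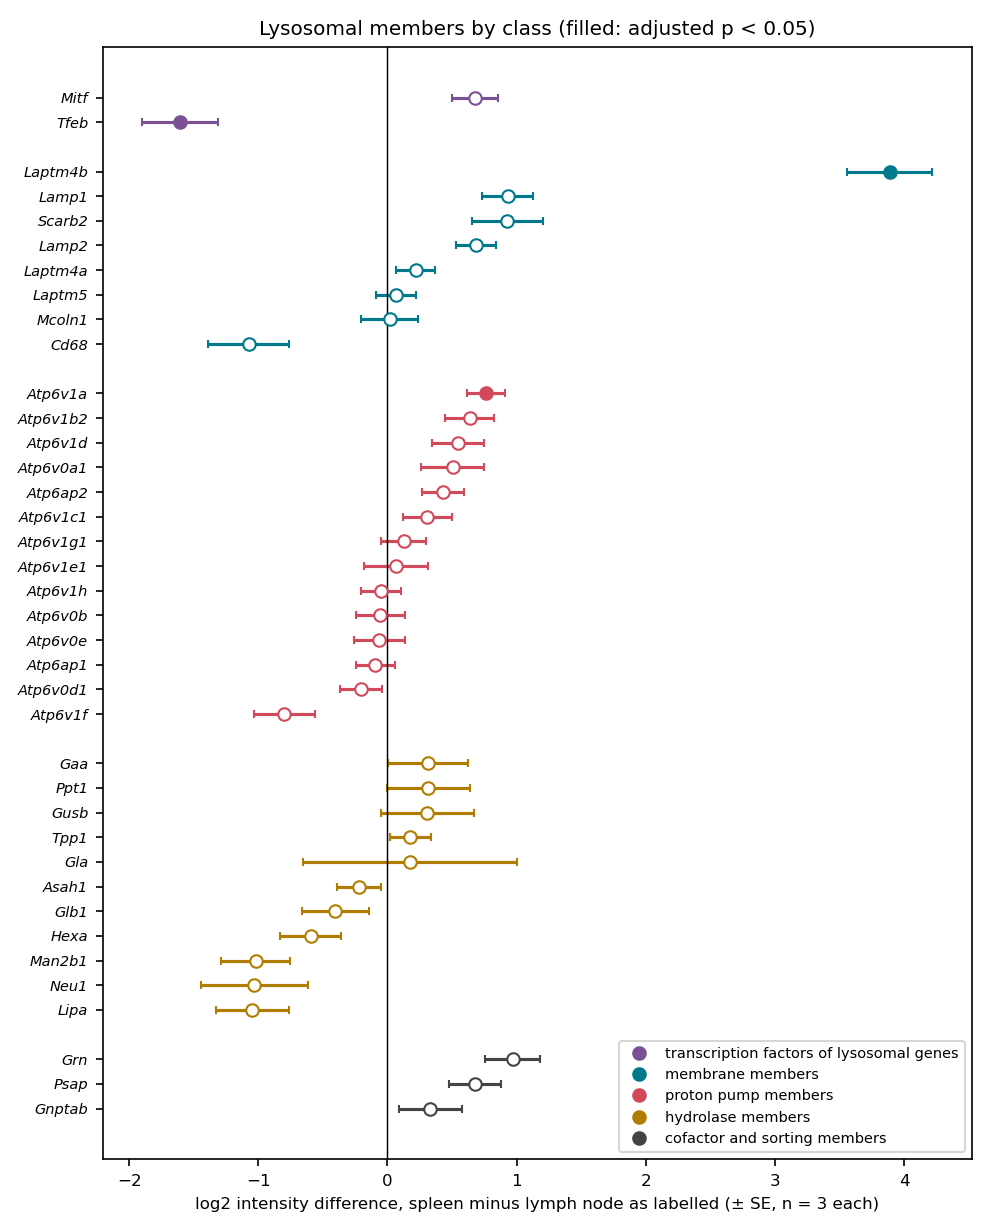
Log2 intensity difference, arrays labelled spleen minus arrays labelled lymph node, for each of the 38 measured members by class, with bars of 1 standard error (3 arrays per group) and filled points for an adjusted p below 0.05. Laptm4b at 3.89 stands far to the right, Tfeb at -1.60 is the lowest, and 32 members lie within 1 of 0, beside 94.0% of all genes.

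Tfeb, the transcription factor best known as a switch for lysosome formation, was lower in the arrays labelled spleen. Its log2 levels on probe set 1422566_at were 7.23, 7.08 and 6.28 in the arrays labelled lymph node, and 4.86, 5.39 and 5.53 in those labelled spleen. The groups did not overlap, although lymph node array 3 lay closer to the spleen arrays than the other two did. Tfeb fell by 1.60 ± 0.29 (SE), a 3.04-fold difference between means of 6.86 ± 0.51 and 5.26 ± 0.35 (SD, n = 3 each), with an adjusted p of 0.0340 in limma. Leaving out array 1 or array 2 of the lymph node group took the adjusted p to 0.142 and 0.143, and leaving out array 1 or array 2 of the spleen group took it to 0.0962 and 0.0584, so Tfeb did not pass in those fits. A single one-symbol probe set was annotated to Tfeb. With the plasmacytoid marker level as a covariate the difference was -1.53 (adjusted p = 0.237), and with the poly-A control level it was -0.79 (0.917).

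Mitf, the relative of Tfeb best known from melanocytes and osteoclasts, lay in the opposite direction and did not pass. Its levels were 6.39, 5.88 and 6.21 in the arrays labelled lymph node, and 6.78, 6.93 and 6.80 in those labelled spleen, without overlap. The difference was 0.68 ± 0.18, a 1.60-fold ratio, with an adjusted p of 0.0888 in limma. A second probe set for Mitf lay near the bottom of the scale in both groups, at means of 2.90 and 2.94.

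The E-box core that these factors bind, CACGTG, was searched in the RefSeq promoters of build GRCm38.p6, each running from 250 bases before to 50 bases after a transcription start. The motif reads the same on both strands. Of the 38 measured members, 32 had a promoter in that table, and 9 of these held the core (28.1%), beside 8.09% of all 27025 genes in the table and 10.8% of the 9888 measured genes with a promoter. The longer form TCACGTGA, which contains the core, lay in 5 members (15.6%), Mcoln1, Atp6v0d1, Atp6v0e, Atp6v1a and Gla, beside 1.12% of all genes in the table and 1.76% of the measured ones. That form with a further G before it and C after it lay in none of the 32 and in 0.37% of all genes. By class, the core lay in 4 of 10 pump promoters, 3 of 10 hydrolase promoters, 2 of 7 membrane promoters, 0 of 2 promoters of transcription factors and 0 of 3 of cofactors. A match describes letters in a window and does not show binding.

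The windows around the matches are printed 5′ to 3′ on the gene's strand, with the core in capitals, because they show how many copies each member carries and how near its start they lie. Those of the 2 membrane members and of the pump members are as follows.
Lamp1, chr8:13159080-13159160, plus strand: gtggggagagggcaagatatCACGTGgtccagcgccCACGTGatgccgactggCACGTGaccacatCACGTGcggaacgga
Mcoln1, chr8:3500428-3500499, plus strand: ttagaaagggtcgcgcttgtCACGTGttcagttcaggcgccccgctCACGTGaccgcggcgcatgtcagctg
Atp6v0b, chr4:117887330-117887385, minus strand: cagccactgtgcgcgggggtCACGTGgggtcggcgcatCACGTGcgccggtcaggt
Atp6v0d1, chr8:105566051-105566078, minus strand: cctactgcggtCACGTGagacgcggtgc
Atp6v0e, chr17:26676388-26676415, plus strand: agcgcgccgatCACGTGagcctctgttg
Atp6v1a, chr16:44139365-44139410, minus strand: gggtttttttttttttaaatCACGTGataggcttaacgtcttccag

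Lamp1 held 4 copies of the core, from 61 to 15 bases before its start. Mcoln1 and Atp6v0b held 2 copies each. In Atp6v0d1 the core began 3 bases before the start, in Atp6v0e it lay 3 bases after it, and in Atp6v1a it lay 131 bases before it.

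The windows of the 3 hydrolase members lay farther from the start in Gaa and Gla than in Glb1, at 140 bases before it for Gaa, 227 and 194 for the 2 copies of Gla, and 48 for Glb1.
Gaa, chr11:119267803-119267848, plus strand: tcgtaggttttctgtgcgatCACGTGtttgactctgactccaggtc
Gla, chrX:134601174-134601252, minus strand: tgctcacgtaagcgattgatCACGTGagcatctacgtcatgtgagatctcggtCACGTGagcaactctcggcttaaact
Glb1, chr9:114401010-114401055, plus strand: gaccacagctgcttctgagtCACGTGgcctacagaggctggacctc

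The members with the core had a median difference of 0.017 between the groups and ranged from -0.40 to 0.93. The 23 members with a promoter and no core had a median of 0.22. Over the measured genes the medians were -0.017 with the core and -0.0079 without it. The 3 Tfeb promoters in the table held no core, and no promoter of Laptm4b was in it.

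Among the membrane members, Laptm4b passed, and 7 of the 8 were higher in the arrays labelled spleen by the sign of the difference. Their median difference was 0.45, and the groups did not overlap for 6, with 5 higher and Cd68 lower. Over all genes 24.5% did not overlap, 11.8% higher and 12.7% lower. Laptm4b encodes a protein of late endosomes and lysosomes that crosses the membrane several times. Its deposited intensities on probe set 1438365_x_at were 45.0, 91.2 and 114.9 in the arrays labelled lymph node, and 1287.1, 1123.9 and 1065.0 in those labelled spleen. On the log2 scale these were 5.49, 6.51 and 6.84 against 10.33, 10.13 and 10.06, and the lowest spleen array lay more than 3 log2 units above the highest lymph node array. The difference was 3.89 ± 0.33, a 14.8-fold ratio, with an adjusted p of 0.00371 in limma.

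Laptm4b has 2 further probe sets, which gave the same direction without overlap. On 1416148_at the means were 5.39 and 7.45, a difference of 2.06, and on 1436915_x_at they were 3.34 and 7.61, a difference of 4.27. With probe sets whose suffix marks probes shared between transcripts left out, the gene was read by 1416148_at alone and still passed (adjusted p = 0.00612). It passed without each array in turn, at an adjusted p between 0.00422 and 0.0294. It did not pass with the poly-A control level as a covariate (2.78, adjusted p = 0.853) or with the plasmacytoid marker level (3.61, adjusted p = 0.0690). Of all 12394 genes, 0 passed with the former covariate and 26 with the latter.

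The other members of the LAPTM family gave no call. Laptm4a, the closest relative, was at 8.96, 8.90 and 9.01 in the arrays labelled lymph node, and 9.30, 9.04 and 9.18 in those labelled spleen, a difference of 0.22 ± 0.15 without overlap (limma adjusted p = 0.506). Laptm5, the family member of blood cells, was at 12.54, 12.51 and 12.70 against 12.74, 12.56 and 12.65, with overlap, and differed by 0.07 ± 0.15 (limma adjusted p = 0.872). Its 2 dimmer probe sets read the other way, without overlap: 1417721_s_at had means of 9.09 and 7.85, and 1426025_s_at had means of 8.59 and 7.38. The mean of the 3 probe sets gave -0.80 (limma adjusted p = 0.0899), so the direction for Laptm5 depends on the probe set read.

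**Figure D2:**
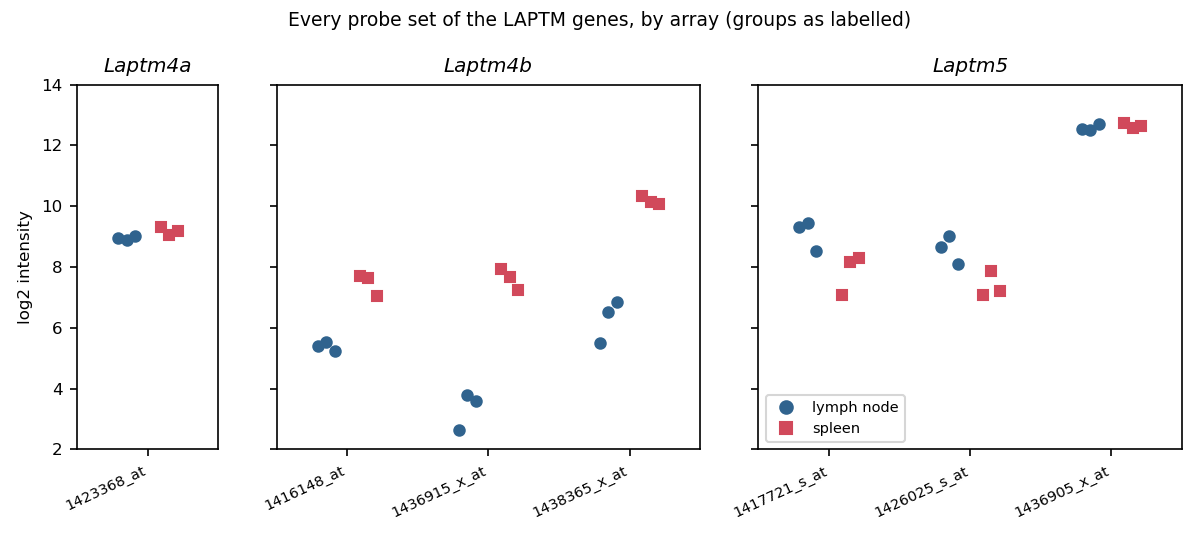
Log2 intensity of every one-symbol probe set of Laptm4a, Laptm4b and Laptm5 on each array (points, 3 per group). All 3 Laptm4b probe sets are higher in the arrays labelled spleen, while the brightest Laptm5 probe set is level between groups and the other 2 are lower there.

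Lamp1 and Lamp2 encode the most abundant glycoproteins of the lysosomal membrane, which line its inner face with sugar chains. Lamp1 was at 9.18, 9.31 and 9.67 in the arrays labelled lymph node, and 10.51, 10.36 and 10.07 in those labelled spleen. Every spleen array was above every lymph node array, with a difference of 0.93 ± 0.20, a 1.91-fold ratio, and an adjusted p of 0.0510 in limma, just short of the threshold. Lamp2 was at 8.87, 8.96 and 8.94 against 9.75, 9.59 and 9.49. It did not overlap either, with a difference of 0.68 ± 0.15, a 1.61-fold ratio and an adjusted p of 0.0549, and all 4 of its probe sets gave a positive sign. Of 18 alternative settings, Lamp1 passed in 7 and Lamp2 in 4.

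Scarb2 encodes LIMP-2, the receptor that carries glucocerebrosidase to the lysosome. It was at 7.92, 8.37 and 8.18 in the arrays labelled lymph node, and 8.50, 9.27 and 9.50 in those labelled spleen. The groups did not overlap and the difference was 0.93 ± 0.28, with an adjusted p of 0.116 in limma, and a second probe set gave 0.97. Mcoln1, the lysosomal calcium channel, differed by 0.017 ± 0.22 (adjusted p = 0.977) with overlap.

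Cd68, a heavily glycosylated lysosomal protein used as a macrophage marker, was the membrane member with a negative sign. It was at 8.70, 9.05 and 8.04 in the arrays labelled lymph node, and 7.01, 7.79 and 7.76 in those labelled spleen, so that lymph node array 3 came close to the highest spleen array. The difference was -1.07 ± 0.31, with an adjusted p of 0.112 in limma. The macrophage markers other than Cd68 summed to 753.4 to 1834.4 in the arrays labelled lymph node and 523.4 to 963.2 in those labelled spleen, with overlap. Their part in the Cd68 values was not tested.

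**Figure D3:**
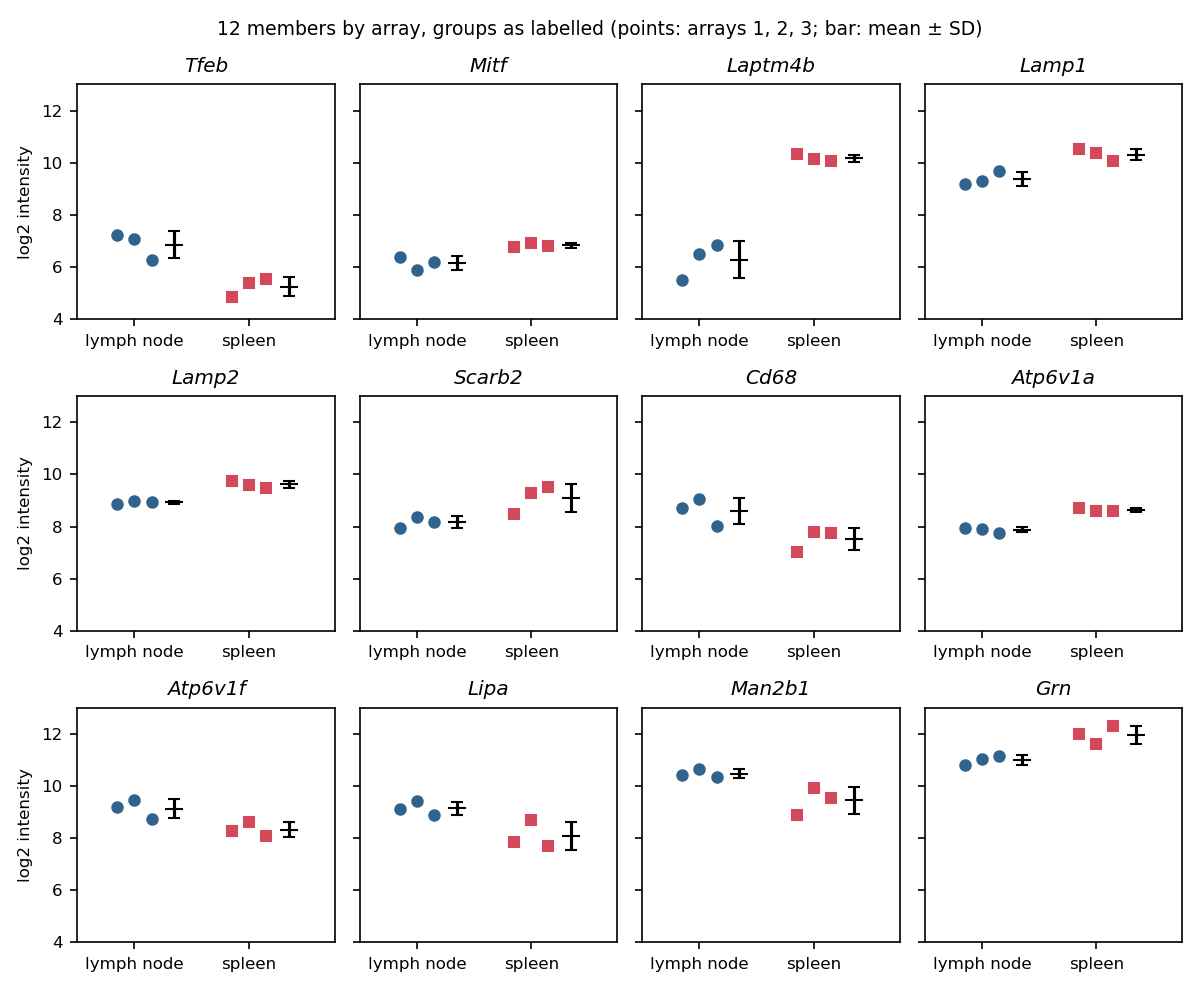
Log2 intensity on each array (points, 3 per group) with the group mean ± SD (bar) for 12 members named in the text. Laptm4b, Atp6v1a, Lamp1, Lamp2, Grn, Mitf and Scarb2 are higher in every array labelled spleen. Tfeb, Cd68, Atp6v1f, Lipa and Man2b1 are lower there. All 12 are among the 18 of 38 members without overlap, so no gene drawn here has overlapping groups. Over all genes 24.5% did not overlap.

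In the proton pump, all 14 measured subunits differed by less than 1 on the log2 scale, as did 94.0% of all genes. Of the subunits 8 were above 0 and 6 below, with a median of 0.096. Atp6v1a passed, and the groups did not overlap for 6 subunits, 5 higher and 1 lower in the arrays labelled spleen. Over all genes 3.40% passed and 24.5% did not overlap, 11.8% higher and 12.7% lower, and the counts by sector below stand beside these shares. With each member read by its brightest probe set, the non-overlapping subunits belonged to the V1 sector or were accessory. Among the 8 V1 subunits 4 were higher and 1 lower without overlap, with a median of 0.22. Among the 4 measured V0 subunits, read in the same way, none was without overlap and none passed in limma. None had an unadjusted p below 0.05, and the median was -0.059. On dimmer probe sets the groups did not overlap for Atp6v0a1 (0.70) and Atp6v0b (-0.86 and -0.31), so the count for V0 depends on the probe set read. Outside the members, a pair of V0 subunits did not overlap, and they lay in opposite directions. Tcirg1 differed by -0.60 ± 0.20 (limma adjusted p = 0.154) and Atp6v0a2 by 0.45 ± 0.23 (limma adjusted p = 0.358), both named after their values were seen. The difference between the sectors was not tested.

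Atp6v1a encodes the catalytic A subunit, which holds the site of ATP hydrolysis. Its levels on probe set 1422508_at were 7.93, 7.92 and 7.76 in the arrays labelled lymph node, and 8.71, 8.60 and 8.60 in those labelled spleen. The arrays of each group lay close together, with means of 7.87 ± 0.09 and 8.64 ± 0.07 (SD, n = 3 each). The difference was 0.77 ± 0.15, a 1.70-fold ratio, with an adjusted p of 0.0384 in limma, and the second probe set gave 0.50, also without overlap. The call did not hold in any of the 6 fits that left out an array (adjusted p between 0.0503 and 0.155), nor with the poly-A (0.82, adjusted p = 0.896) or plasmacytoid (0.88, adjusted p = 0.178) covariate, and the sign stayed positive in all 18 alternatives.

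Atp6v1b2, the B subunit that sits beside A in the catalytic ring, was at 7.45, 7.81 and 7.50 in the arrays labelled lymph node, and 8.38, 8.34 and 7.95 in those labelled spleen. Its difference of 0.64 ± 0.19 did not pass (limma adjusted p = 0.117). Atp6v1d, a part of the central rotor stalk, was at 10.06, 10.25 and 9.92 against 10.93, 10.59 and 10.34, a difference of 0.55 ± 0.20 (limma adjusted p = 0.189). Neither gene's groups overlapped, and for each gene 2 of 3 probe sets gave the positive sign. Atp6v1c1, which links the sectors, differed by 0.31 ± 0.19 (limma adjusted p = 0.438), with spleen array 3 at 9.70 and the other spleen arrays at 9.20 and 9.16, just above the highest lymph node array at 9.09.

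Atp6v1f, also of the rotor stalk, lay the other way. It was at 9.19, 9.44 and 8.72 in the arrays labelled lymph node, and 8.28, 8.62 and 8.06 in those labelled spleen. The groups came close and did not overlap, and the difference was -0.80 ± 0.24 (limma adjusted p = 0.116). The 3 remaining V1 subunits, Atp6v1e1, Atp6v1g1 and Atp6v1h, overlapped and differed by -0.048 to 0.12.

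Among the V0 subunits, Atp6v0a1, the large membrane subunit that forms the proton path, differed by 0.50 ± 0.24 with overlap (limma adjusted p = 0.318). Its dimmer probe sets gave 0.70 without overlap, and 0.14 and -0.21 with overlap. Atp6v0b, a part of the rotating ring, differed by -0.055 ± 0.19 with overlap, and its 2 dimmer probe sets gave -0.86 and -0.31 without overlap. Atp6v0d1 and Atp6v0e differed by -0.21 and -0.062, with overlap. Atp6ap2, the accessory subunit also known as the prorenin receptor, was at 11.53, 11.55 and 11.75 in the arrays labelled lymph node, and 12.22, 11.93 and 11.97 in those labelled spleen. Its difference of 0.43 ± 0.16 was without overlap and did not pass (limma adjusted p = 0.205). The other accessory subunit, Atp6ap1, differed by -0.093 with overlap.

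None of the 11 hydrolases passed in limma, and 4 had an unadjusted p below 0.05 (19.0% of all genes did). The groups did not overlap for 2, Lipa and Man2b1, both lower in the arrays labelled spleen. Over all genes 24.5% did not overlap, 12.7% as lower. The signs were divided, 5 positive and 6 negative, with a median of -0.22. Man2b1, the acid mannosidase that trims glycans, was at 10.41, 10.65 and 10.35 in the arrays labelled lymph node, and 8.88, 9.91 and 9.55 in those labelled spleen. The difference was -1.02 ± 0.27, a 2.03-fold ratio, with an adjusted p of 0.0848 in limma, and the second probe set gave -1.42 without overlap. Spleen array 1 was the lowest on both probe sets.

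Lipa, the acid lipase that frees cholesterol from its esters, was at 9.10, 9.41 and 8.88 in the arrays labelled lymph node, and 7.86, 8.69 and 7.70 in those labelled spleen. Spleen array 2 came close to lymph node array 3 without reaching it, and the difference was -1.05 ± 0.28 (limma adjusted p = 0.0929). The 2 other Lipa probe sets gave -0.09 and -0.33, with overlap, so the size for Lipa rests on the brightest one.

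Neu1, the sialidase, was at 7.07, 6.82 and 5.92 in the arrays labelled lymph node, and 5.52, 6.31 and 4.89 in those labelled spleen. Its groups overlapped, with a difference of -1.03 ± 0.41 (limma adjusted p = 0.230). Hexa, the alpha chain of hexosaminidase, had deposited intensities of 1715.4, 1763.1 and 1566.0 against 851.8, 1574.4 and 1024.2, so that spleen array 2 lay among the lymph node arrays, and differed by -0.60 ± 0.24 on the log2 scale (limma adjusted p = 0.230). Ppt1, the thioesterase that removes palmitate from proteins, was at 9.94, 10.83 and 10.70 against 10.37, 11.36 and 10.68, with overlap (0.32 ± 0.32, limma adjusted p = 0.671). The 6 other hydrolases, Gaa, Gla, Glb1, Gusb, Asah1 and Tpp1, overlapped and differed by -0.40 to 0.32.

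The 3 cofactor and sorting genes were all above 0, with a median of 0.68, and none passed in limma, while 2 had an unadjusted p below 0.05, against 19.0% of all genes. Grn, the precursor of the granulins, which is needed for normal lysosomal function, was at 10.78, 11.02 and 11.14 in the arrays labelled lymph node, and 11.97, 11.61 and 12.28 in those labelled spleen. The groups did not overlap and the difference was 0.97 ± 0.21, a 1.96-fold ratio, with an adjusted p of 0.0530 in limma. All 3 Grn probe sets gave a positive sign, and the gene passed in 6 of 18 alternatives. On 1448148_at the groups overlapped and the difference was 0.56. With probe sets of shared suffix left out, Grn was read by that probe set and did not pass (limma adjusted p = 0.470).

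Psap, the precursor of the saposins that present sphingolipids to their hydrolases, was at 10.83, 11.13 and 10.65 in the arrays labelled lymph node, and 11.27, 11.68 and 11.69 in those labelled spleen. It did not overlap and differed by 0.68 ± 0.20 (limma adjusted p = 0.115), while its second probe set gave 0.09. Gnptab, which starts the mannose 6-phosphate tag that sends hydrolases to the lysosome, differed by 0.33 ± 0.24 with overlap (limma adjusted p = 0.535).

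The classes can be set side by side on each array by the median deviation of their members from each gene's own mean over the 6 arrays. For the membrane members it was -0.29, -0.21 and -0.17 in the arrays labelled lymph node, and 0.22, 0.15 and 0.18 in those labelled spleen. For the pump members it was 0.064, -0.045 and -0.18 against -0.052, 0.060 and 0.079. For the hydrolases it was 0.33, 0.37 and 0.017 against -0.35, 0.20 and -0.060. The membrane medians were thus separate between the groups, the pump and hydrolase medians overlapped, and the hydrolase medians spread most within a group. The differences between classes were not tested. The hydrolase median difference turned positive with the poly-A control level (0.27) or the plasmacytoid marker level (0.13) as a covariate. The pump median was -0.013 without lymph node array 3, so its sign rests on that array, and the hydrolase median was -0.59 without the same array.

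**Figure D4:**
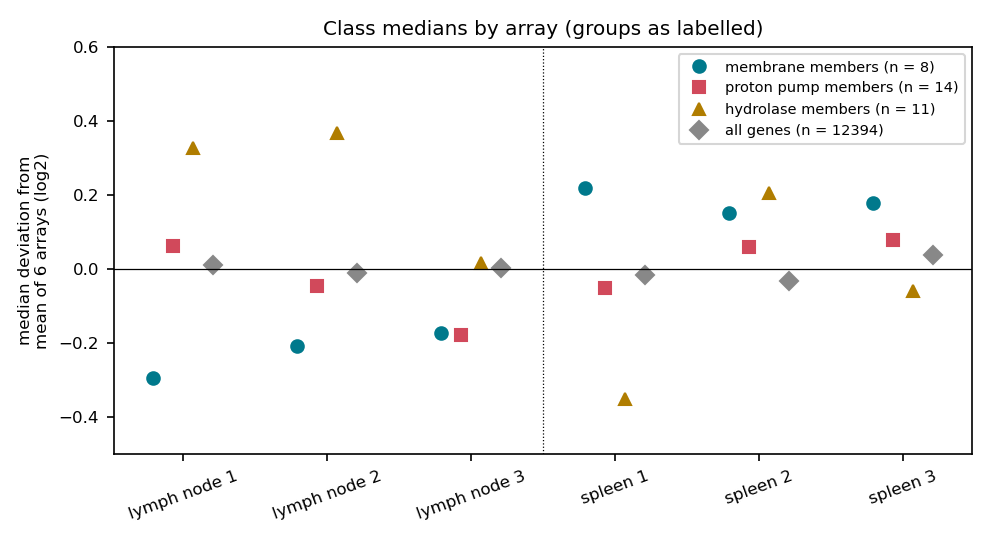
Median deviation (log2) of the measured membrane, proton pump and hydrolase members and of all genes from each gene's mean over 6 arrays, on each array. The membrane medians are below 0 in the 3 arrays labelled lymph node and above 0 in the 3 labelled spleen, while the hydrolase medians run from -0.35 to 0.37 with overlap.

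Other genes of the lysosome were read from 5 further lists holding 94 symbols, 74 of them measured. Of the 74, 4 passed as higher and 2 as lower in the arrays labelled spleen, and the groups did not overlap for 22, 9 higher and 13 lower. Over all genes 3.40% passed and 24.5% did not overlap, 11.8% higher and 12.7% lower, so the count without overlap lies near the background. The median difference was -0.046, with 34 genes above 0 and 40 below.

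Litaf, a membrane protein of late endosomes and lysosomes, had the largest difference of the 6 that passed. It was at 7.74, 7.42 and 8.07 in the arrays labelled lymph node, and 9.35, 9.45 and 9.95 in those labelled spleen, without overlap. The difference was 1.84 ± 0.24, a 3.58-fold ratio, with an adjusted p of 0.0116 in limma, and Litaf did not pass once array 1 or array 2 of the lymph node group was left out. In the same list of 20 measured membrane proteins and transporters, Npc2, which hands cholesterol on to NPC1, was higher by 0.85 ± 0.17 (limma adjusted p = 0.0402). Mcoln3, a relative of Mcoln1, was higher by 0.98 (limma adjusted p = 0.0271), with means of 3.17 and 4.15 near the bottom of the scale. Abca2, a lipid transporter, fell by 0.86 ± 0.15 (limma adjusted p = 0.0310). The median of that list was -0.28.

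Among 20 other enzymes and activators, Acp5, the tartrate-resistant acid phosphatase, was lower in the arrays labelled spleen. It was at 9.73, 10.09 and 9.25 in the arrays labelled lymph node, and 8.33, 8.14 and 7.19 in those labelled spleen. The groups did not overlap, and the difference was -1.80 ± 0.34, a 3.49-fold ratio, with an adjusted p of 0.0354 in limma. Scpep1, a serine carboxypeptidase, was higher by 0.84 ± 0.15 (limma adjusted p = 0.0305), with group means of 6.96 and 7.80. When 1 array was left out, Acp5 passed in 2 of 6 fits (without lymph node array 3 or spleen array 3), Mcoln3 in 3 (not without lymph node array 1 or 2 or spleen array 1), Abca2 and Scpep1 in 1 each (without spleen array 3), and Npc2 in 0. None of the 6 genes passed with either covariate. With the plasmacytoid marker level Acp5 was at -0.64 (adjusted p = 0.355) and Litaf at 1.18 (0.140), and with the poly-A level they were at -1.10 (0.912) and 1.46 (0.880).

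None of the other 3 lists held a gene that passed in limma, and the counts that follow stand beside 19.0% of all genes with an unadjusted p below 0.05. Of 8 measured pump genes outside the members, 2 had an unadjusted p below 0.05, and Atp6v1g2 had the smallest adjusted p at 0.114, with levels near the bottom of the scale. Of 14 genes of the mannose 6-phosphate and sorting route, 4 had an unadjusted p below 0.05, and Vps39, a part of a complex that tethers membranes to the lysosome, had the smallest adjusted p (0.75 ± 0.18, adjusted p = 0.0650). Of 12 nutrient-sensing genes on the lysosomal surface, 1 had an unadjusted p below 0.05, Lamtor4, a part of the Ragulator complex (-0.75 ± 0.21, limma adjusted p = 0.107).

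**Figure D5:**
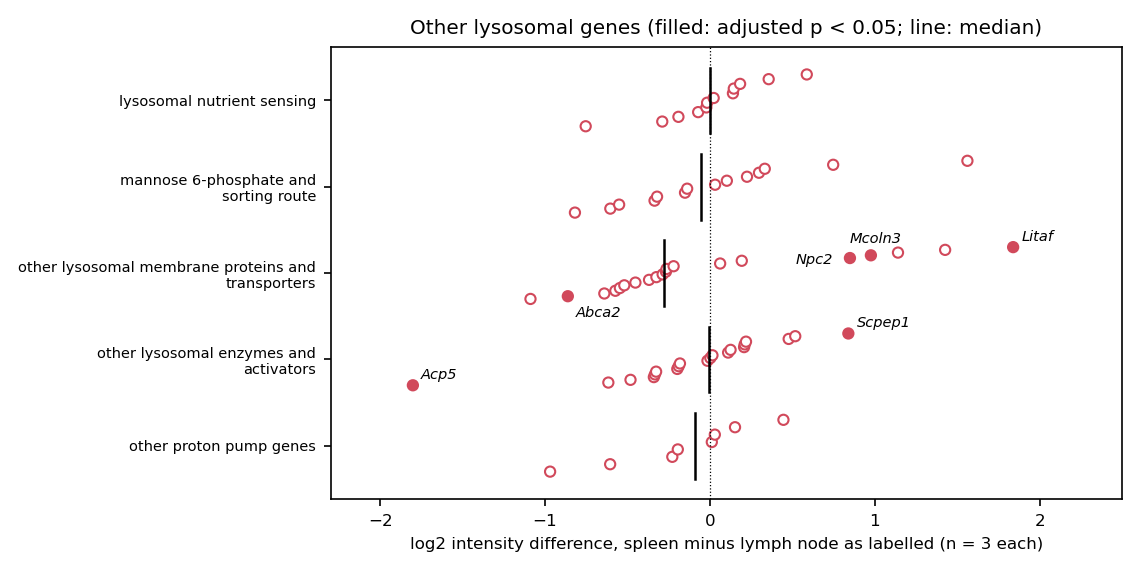
Log2 intensity difference, arrays labelled spleen minus arrays labelled lymph node, for the 74 measured genes of 5 further lysosomal lists, with filled points for an adjusted p below 0.05 and a line at each list's median. The 6 genes that passed lie in 2 lists, and the list medians run from -0.28 to 0.0031.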

How the data were processed

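The authors deposited 1 linear intensity per probe set and array, and the submitters' processing notes name RMA and limma without versions or settings. Of 22690 probe sets, 64 were controls, 20393 carried 1 gene symbol, 691 several and 1606 none in the platform annotation, and 20364 were matched to RefSeq through the Entrez ID with 0 symbols changed. Each gene was read by its one-symbol probe set with the highest mean log2 intensity over the 6 arrays. The log2 intensities of the deposited values were fitted with limma 3.58.1 in R 4.3.3 (lmFit, eBayes) on both groups with no covariate, and p-values were adjusted by Benjamini-Hochberg over 12394 genes. The fit was tested on simulated data. The number of arrays limits the precision, and their scan dates are not given in the sources used here.

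The members, classes and lists were chosen with earlier results of these data known. Members were named when they passed, when their groups did not overlap, when they were transcription factors, or when they were among the 2 brightest or the 2 most different of their class. In the other lists the genes that passed were named, or else the one with the smallest adjusted p. Alternatives were array centring, a repeat quantile normalization, a filter on dim genes, an offset of 16, other variance settings, array weights, a replicate block, left-out arrays, other probe set rules, the covariates and a stricter threshold of 0.01. Promoter sequences came from RefSeq, and protein sequences were not used here.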

Additional observations from a re-analysis of the deposited data

How the results depend on the processing

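With 3 arrays per group, small differences between dim genes cannot be resolved. In 18 alternatives and at a stricter threshold, the number of members higher in the arrays labelled spleen, 2 as reported, was 4 with median centring, 5 with the filter on dim genes, 5 with trended robust variances, 5 with array weights, 1 with the replicate block and 1 at a threshold of 0.01. The number lower, 1 as reported, was 0 with an offset of 16, 2 with the replicate block, 2 with the mean of all probe sets and 0 at a threshold of 0.01. With the poly-A or the plasmacytoid marker level as a covariate, limma passed 0 members as higher and 0 as lower, and 3 and 8 of 38 members had an unadjusted p below 0.05, beside 701 (5.66%) and 2059 (16.6%) of all genes. Over all genes those fits passed 0 and 26, each with 1 residual degree of freedom fewer. Both covariates separated the groups without overlap, so these fits cannot tell a covariate apart from the group label. Leaving out 1 array at a time gave 1 to 2 members higher and 0 to 1 lower, and between 47 and 475 genes in all, the fewest without lymph node array 2 (56 without lymph node array 1, 130 without spleen array 1). The genes passing over all were 518 with the block, 576 with trended robust variances and 764 with array weights.

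The median difference of the hydrolases was 0.27 with the poly-A covariate and 0.13 with the plasmacytoid covariate, and that of the membrane members 0.30 and 0.28. The pump median was -0.016 without both arrays numbered 3 and 0.19 without probe sets of shared suffix. With 1 array left out, the hydrolase median ran from -0.59 to -0.11 and the pump median from -0.013 to 0.18. Signs turned with the poly-A covariate for Atp6v1c1 (-0.0087), Hexa (0.27), Laptm4a (-0.0015), Laptm5 (-0.17), Lipa (0.0074) and Neu1 (0.97), and with the plasmacytoid covariate for Atp6v1c1 (-0.10), Laptm5 (-0.018) and Neu1 (0.34). Laptm5 also turned with the mean of its probe sets (-0.80). The cause of these changes was not tested.

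The replicate numbers are shared by the groups, and same-numbered arrays deviated together at r = 0.022, 0.24 and 0.16 over genes. For arrays of different numbers r ran from -0.28 to 0.13, and 4 of 6 arrays correlated best with their own number. The labels do not say what the numbers stand for, and these correlations do not settle whether the arrays are pairs. The main fit took no pairs, and the replicate block was fitted as an alternative. With the replicate block, Atp6v1a had an adjusted p of 0.0614, Npc2 one of 0.0535, and Lipa passed.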

Other observations

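Gla, the galactosidase that clears globotriaosylceramide, had 1 low array in each group: 7.97, 7.71 and 5.26 in the arrays labelled lymph node, and 7.50, 8.23 and 5.74 in those labelled spleen, with the arrays numbered 3 low in both. Its difference was 0.18 ± 0.83. Gusb, the glucuronidase, was highest in the arrays numbered 2 in both groups, with deposited intensities of 101.6, 208.1 and 114.9 against 117.2, 256.5 and 153.4. Among the members with several probe sets, 13 of 26 had probe sets of opposite sign between the groups. Igf2r, a mannose 6-phosphate receptor that carries hydrolases, was at 3.76, 3.74 and 5.19 in the arrays labelled lymph node. In those labelled spleen it was at 5.85, 6.06 and 5.46, without overlap and short of the threshold in limma. Lymph node arrays 1 and 2 were below a log2 level of 4, close to the bottom of the scale. M6pr, of the same list, differed by -0.14 with overlap (limma adjusted p = 0.747). Igf2r was chosen after its values were seen.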
